A study of Homo sapiens with 6 samples.

Results

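Epithelial cells are held together by tight junctions, adherens junctions and desmosomes, exchange small molecules through gap junctions, and keep an apical and a basal side with the help of polarity proteins. A set of 48 gene names for these structures was followed in Hep3B cells with and without knockdown of DAGLA, the gene of diacylglycerol lipase alpha, which makes the endocannabinoid 2-arachidonoylglycerol. The names were taken from a list of tight junction, adherens junction, desmosome, gap junction and polarity genes, and were matched to the deposited table through their Ensembl identifiers in GENCODE release 29. PALS1 and MPP5 are names of the same gene, so the list held 47 genes of the 29908 in the table.

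In a tight junction, claudins, occludin and the MARVEL-domain proteins form the seal between neighbouring cells, and plaque proteins of the TJP (ZO) family and cingulin tie it to actin. Adherens junctions join nectins and cadherins to actin through afadin and the catenins, whereas desmosomes tie desmosomal cadherins to intermediate filaments through plakoglobin, plakophilins and desmoplakin. Connexins build gap junction channels, and hepatocytes mainly use the connexin encoded by GJB1. The Crumbs complex (CRB3, MPP5 and PATJ) and the PAR complex mark the apical side, which in hepatocytes faces the bile canaliculus, and the Scribble group (SCRIB, DLG1 and LLGL2) marks the basolateral side.

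Hep3B is an established human hepatocellular carcinoma line. In Hep3B-KD cells DAGLA was targeted by a lentivirally delivered shRNA (short hairpin RNA), and Hep3B-Con cells carried a control lentivirus, which the sample titles call a control hairpin and the design text calls an empty vector. Lentivirus was used at a multiplicity of infection of 5 for each group, and infected cells were selected with puromycin. The knockdown rested on 1 hairpin, and whether a group was a pool or came from 1 clone is not given in the sources used here. The 3 libraries of each group were described as biological replicates with no more detail, so p-values measure the spread between these samples. The labels named no batch.

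The hairpin target and the strand that would guide silencing are shown because short matches to the guide's seed can lower other transcripts. The target lies in the coding sequence of DAGLA (GRCh38, chr11:61740504-61740522, plus strand, exon 18 of transcript DAGLA-201). Capitals mark the target in the first line and the seed, bases 2 to 8 of the guide, in the second.
DAGLA target in context: ctgggGCGACAACAAGGCCTTCAAtgagg
guide strand: tTGAAGGCcttgttgtcgc

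The seed match, GCCTTCA, was found in the longest 3′ UTR of 5 of the 47 genes (10.6%), compared with 14.5% of 11185 tested genes with a 3′ UTR. The sets are unlike, since the 47 include 7 genes too low to be tested, CLDN4 among them. GJA1, NECTIN1, TJP3, CLDN1 and CRB3, whose values follow, held none there. The 5 genes were CLDN4, CLDN12, CLDN15, DSC2 and F11R, and in CLDN15 the match is coding in another transcript. The matches of the 3 genes that passed the test are shown with the match in capitals, at chr7:90413634-90413640 (CLDN12, plus strand), chr18:31061058-31061064 (DSC2, minus strand) and chr1:160997517-160997523 (F11R, minus strand) of GRCh38.
CLDN12: aaggaattttaGCCTTCAtattgatatct
DSC2: aaagtatagaaGCCTTCActtttcaatac
F11R: ctgaatttcagGCCTTCAttccagagccc
CLDN12 was lower in Hep3B-KD cells, and DSC2 and F11R were higher, with the values given in their sections. A part of the seed in these differences was not tested.

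Values were FPKM (reads scaled to exon length and to the reads of the library), and library totals ranged from 15861039 to 17572714 reads. DAGLA itself had 9.42, 9.40 and 9.02 FPKM in Hep3B-Con and 4.62, 4.46 and 4.78 FPKM in Hep3B-KD, a log2 fold change of -0.99 (SE 0.0441, limma adjusted p = 5.25e-06). A mean of 0.5 FPKM or more was reached by 14221 genes, of which 8521 passed an adjusted p of 0.05 (limma on log2(FPKM + 0.1), Benjamini-Hochberg), 5133 higher and 3388 lower in Hep3B-KD. The median gene was higher by 0.11 on the log2 scale, and centring each library on its median log ratio turned the split to 4064 higher and 4308 lower. Hepatocyte markers, led by ALB, were present in every library, with a summed 3117 to 3178 FPKM in Hep3B-Con and 4504 to 4528 FPKM in Hep3B-KD, and 7 of the 10 were higher and 3 lower. The summed fibroblast markers ranged from 9.28 to 10.2 FPKM in Hep3B-Con and from 5.48 to 5.96 FPKM in Hep3B-KD, with 3 of 6 tested and all 3 lower. Cholangiocyte markers summed to 245.6 to 292 FPKM against 324.1 to 366.1 FPKM, with 3 of 4 tested higher and 1 lower. Immune markers stood at 2.83 to 4.47 FPKM against 4.0 to 4.83 FPKM, endothelial markers at most at 0.385 FPKM, and of the squamous markers TP63 was listed, at most at 0.160 FPKM. The part of these marker differences in the junction results was not tested.

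Most junction and polarity genes that Hep3B cells expressed were higher after DAGLA knockdown, while CLDN1, the most abundant, and GJA1 were lower. Of the 47 genes, 40 reached 0.5 FPKM and were tested, and 7 (CLDN2, CLDN3, CLDN4, CLDN6, CLDN7, CLDN14 and GRHL2) did not. Of the 40, 25 were higher in Hep3B-KD (62.5%, compared with 36.1% of all genes tested), 9 were lower (22.5% compared with 23.8%) and 6 did not pass the threshold. In all, 85% of the 40 passed, compared with 59.9% of all genes tested. The counts of each class are to be read against the same shares of all genes, 36.1% higher and 23.8% lower. The median log2 fold change of the 40 was 0.30. With median centring, it was 0.20, with 21 higher (52.5% compared with 28.6%), 11 lower (27.5% compared with 30.3%) and 8 past no threshold, while 58.9% of all genes tested passed. The 40 were also more abundant than the typical gene, with a median level of 17.8 FPKM compared with 4.92 FPKM.

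Changes of at least 2-fold were few. NECTIN1 and TJP3 rose and GJA1 fell by at least 2-fold with an adjusted p under 0.05, which is 7.5% of the 40 compared with 8.83% of all genes tested (5.89% higher and 2.94% lower). The groups did not overlap for 36 of the 40 genes (90%, compared with 66.9% of all genes tested), with Hep3B-KD above for 26 (40.7% of all genes tested) and below for 10 (26.3%). The summed level of all 47 genes differed little between the groups, at 1391 ± 3.67 FPKM in Hep3B-Con and 1377 ± 7.17 FPKM in Hep3B-KD (SD, n = 3). As these are bulk samples, fewer cells that express a gene and less of its RNA per cell cannot be told apart.

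**Figure D1:**
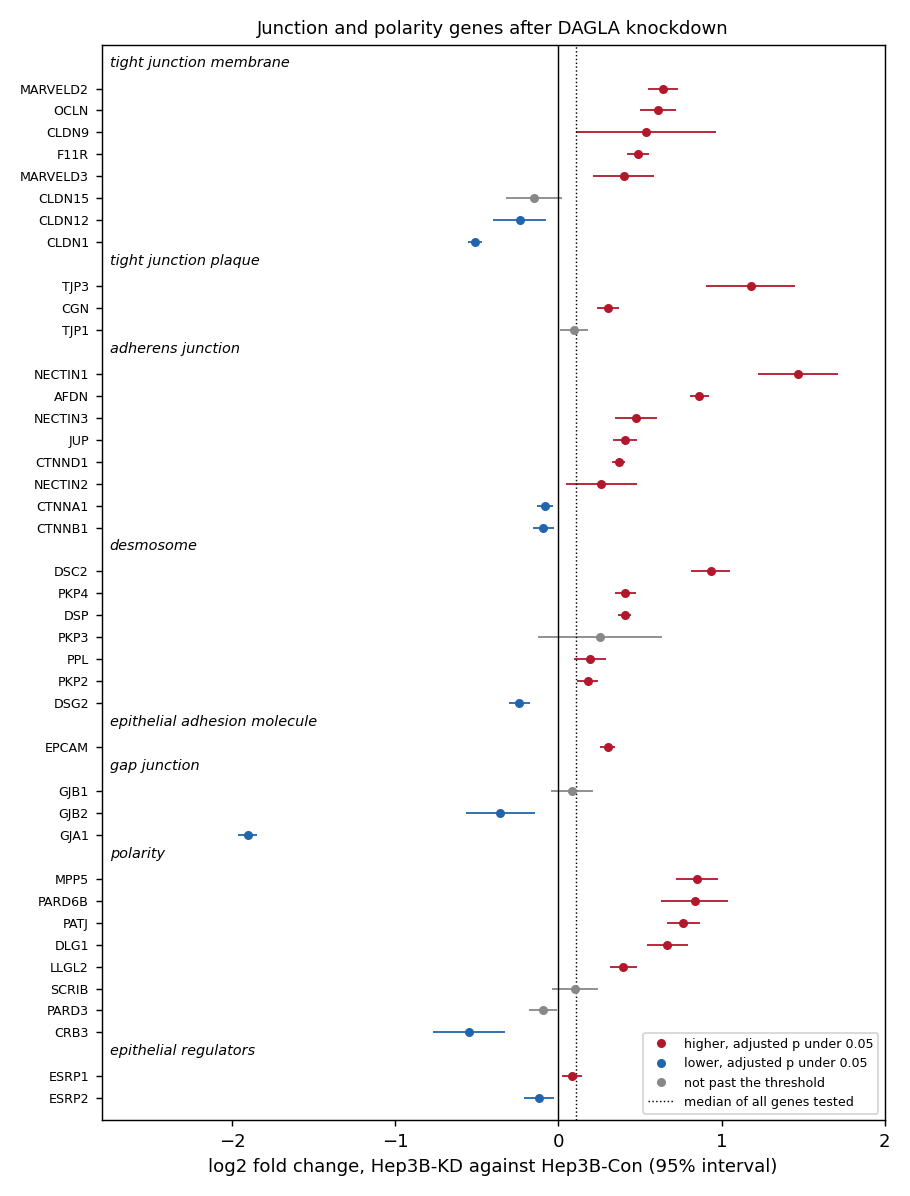
Log2 fold change of the 40 tested genes, Hep3B-KD against Hep3B-Con (x axis, on the log2(FPKM + 0.1) scale), by class, with 95% intervals from limma as lines. Red points (25) were higher and blue points (9) lower at an adjusted p under 0.05, grey points (6) did not pass, and the dotted line is the median of all genes tested (0.11). GJA1 stands apart on the left at -1.90 and NECTIN1 on the right at 1.47.

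Gap junction genes contained the largest change of the 40. GJA1 encodes connexin 43, a connexin of many tissues that mature hepatocytes express little. It lies on chromosome 6 (GRCh38, 121435577 to 121449727, plus strand) and had 101.3, 102.9 and 99.3 FPKM in Hep3B-Con and 27.6, 26.5 and 26.8 FPKM in Hep3B-KD. The groups were far apart, and each value rested on 1455 to 6102 reads. GJA1 was 3.74-fold lower in Hep3B-KD, with a log2 fold change of -1.90 (SE 0.0240, limma adjusted p = 5.32e-08) that ranged from -2.01 to -1.78 over 16 alternative settings.

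GJB1, which encodes the main connexin of hepatocytes (connexin 32), had 19.99, 20.77 and 19.0 FPKM in Hep3B-Con and 19.74, 21.47 and 22.17 FPKM in Hep3B-KD. The groups overlapped, and the log2 fold change of 0.08 (SE 0.0534, limma adjusted p = 0.220) became -0.02 with median centring. GJB2, which encodes connexin 26, another hepatocyte connexin, was scarce at 3.17, 2.98 and 2.78 FPKM in Hep3B-Con and 2.18, 2.54 and 2.20 FPKM in Hep3B-KD. It was lower without overlap, by a log2 fold change of -0.36 (SE 0.0879, limma adjusted p = 0.0115).

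The sum of the 3 connexin transcripts was 124 ± 2.78 FPKM in Hep3B-Con and 50.4 ± 0.846 FPKM in Hep3B-KD (SD, n = 3). The make-up of this sum differed as well: GJA1 held 81.5% ± 0.411 of it in Hep3B-Con and 53.5% ± 1.90 in Hep3B-KD, while the share of GJB1 was 16.1% ± 0.358 in Hep3B-Con and 41.9% ± 1.80 in Hep3B-KD. GJA1 remained the most abundant of the 3 in every library. Connexin genes outside the set were left out of the sum, among them GJC1 at 15.7 ± 0.580 FPKM in Hep3B-Con and 19.8 ± 0.595 FPKM in Hep3B-KD. The shares are descriptions without a test.

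**Figure D2:**
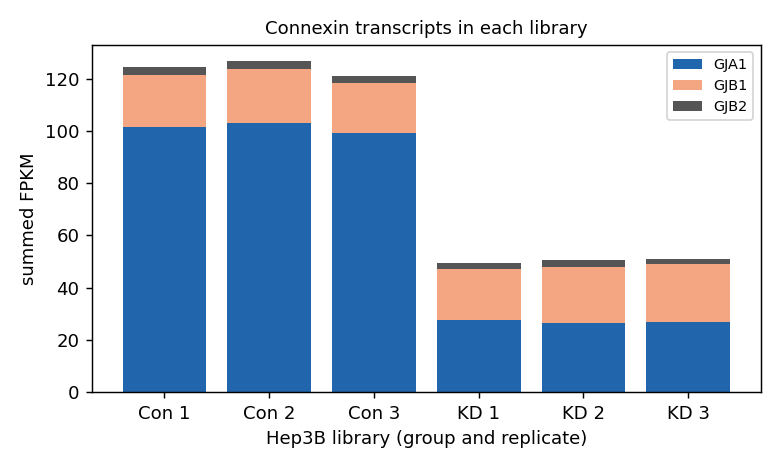
Summed FPKM of the connexin genes GJA1, GJB1 and GJB2 (y axis) in each of the 6 libraries (x axis), as stacked bars. The sums stand at 121.1 to 126.6 FPKM in the Hep3B-Con libraries and 49.5 to 51.1 FPKM in the Hep3B-KD libraries, and most of the difference lies in the GJA1 segment.

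The RefSeq promoter of GJA1 (GRCh38.p14, chr6:121435396-121435695, plus strand, 250 bases before to 50 after the start) is shown because the gene had the largest change of the 40. Capitals mark a match to the AP-1 motif, TGANTCA, which reads the same on the other strand and occurs in 7.76% of 27305 promoters of this length. No match was found on either strand to the TEAD core GGAATG, which 14% of promoters hold, or to the E-box CAGGTG of the SNAI and ZEB repressors, which 20.6% hold.
GJA1: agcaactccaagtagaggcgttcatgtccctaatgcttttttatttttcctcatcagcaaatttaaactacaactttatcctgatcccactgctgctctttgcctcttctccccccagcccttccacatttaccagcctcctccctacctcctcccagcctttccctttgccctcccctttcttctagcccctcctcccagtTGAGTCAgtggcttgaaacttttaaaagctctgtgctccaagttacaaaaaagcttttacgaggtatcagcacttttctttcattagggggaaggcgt
A match is a stretch of letters and shows no binding.

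Tight junction membrane genes went in both directions. Of the 14 genes, 8 were tested, and 5 were higher (OCLN, MARVELD2, MARVELD3, F11R and CLDN9), 2 lower (CLDN1 and CLDN12) and 1 (CLDN15) past no threshold.

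CLDN1 encodes claudin-1, a sealing claudin of liver and skin and an entry factor for hepatitis C virus. It was the most abundant of all 47 genes and lies on chromosome 3 (190305701 to 190322475, minus strand). CLDN1 had 395.7, 411.2 and 404 FPKM in Hep3B-Con and 283.2, 281.7 and 284.8 FPKM in Hep3B-KD. The groups were well separated, and the log2 fold change was -0.51 (SE 0.0172, limma adjusted p = 1.85e-06), which shrank to -0.27 with quantile normalization. CLDN1 held 95.6% ± 0.110 of the summed FPKM of the 10 claudins of the set in Hep3B-Con and 94.3% ± 0.159 in Hep3B-KD. The sum therefore followed CLDN1, from 422 ± 7.63 to 300.5 ± 1.54 FPKM (SD, n = 3). Claudin genes outside the set were left out of it, among them CLDN23 (2.60 and 3.21 FPKM) and CLDN11 (2.18 and 1.70 FPKM in Hep3B-Con and Hep3B-KD).

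The other claudins stood far below. CLDN12 had 7.78, 8.37 and 7.32 FPKM in Hep3B-Con and 6.82, 6.89 and 6.15 FPKM in Hep3B-KD, lower by a log2 fold change of -0.24 (SE 0.0677, limma adjusted p = 0.0210). CLDN9 went the other way, with 1.06, 0.730 and 1.11 FPKM in Hep3B-Con and 1.57, 1.31 and 1.41 FPKM in Hep3B-KD. The groups did not overlap, and CLDN9 was higher by 0.54 (SE 0.178, limma adjusted p = 0.0373), on 26 to 51 reads per library, a call that 8 of the 16 alternative settings did not keep, among them those without Hep3B-Con replicate 1 (0.60) or 2 (0.37) and without any of the Hep3B-KD libraries (0.47 to 0.59). CLDN12 lost its call without Hep3B-Con replicate 1 (-0.24) or 2 (-0.19) and without Hep3B-KD replicate 3 (-0.19). Reads of CLDN12 could also have been split, as it shares exon bases with other genes on the same strand, among them GTPBP10 (5.15%) and CDK14 (2.98%). CLDN15 averaged 8.37 ± 0.409 and 7.55 ± 0.651 FPKM, with a log2 fold change of -0.15 (limma adjusted p = 0.117), and passed as lower with median centring (-0.25) and with quantile normalization (-0.23), with limma adjusted p from 0.0222 to 0.287 over the alternative settings.

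The remaining claudins of the set were close to absent. CLDN2, CLDN3, CLDN4, CLDN6, CLDN7 and CLDN14 averaged at most 0.647 FPKM in either group. CLDN3 was read 2, 5 and 1 times in the Hep3B-Con libraries and 10, 18 and 12 times in the Hep3B-KD libraries, without overlap. In the fit with no filter on low values its log2 fold change was 1.81 (SE 0.398, limma adjusted p = 0.0161), and none of the other 5 passed, with adjusted p from 0.0722 (CLDN14, with 2 to 10 reads in Hep3B-Con and 13 to 36 in Hep3B-KD) to 0.947 (CLDN4). CLDN7 was at or under 3 reads in every Hep3B-KD library (2, 1 and 0 reads), and no fold is given for it. CLDN2 was read 32, 29 and 36 times in Hep3B-Con and 18, 18 and 14 times in Hep3B-KD, and its groups and those of CLDN14 did not overlap, although neither gene passed (limma adjusted p = 0.0810 for CLDN2).

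Transcripts of 4 other tight junction membrane proteins were each higher. OCLN encodes occludin, MARVELD2 encodes tricellulin, which seals the corners where 3 cells meet, and MARVELD3 encodes a related membrane protein. MARVELD2 rose from 10.6 ± 0.347 to 16.5 ± 0.523 FPKM (log2 fold change 0.64, SE 0.0393, limma adjusted p = 1.86e-05) and OCLN from 9.18 ± 0.429 to 14.1 ± 0.424 FPKM (0.61, SE 0.0449, limma adjusted p = 4.13e-05). MARVELD3 had 3.93 ± 0.415 and 5.21 ± 0.0329 FPKM (0.40, limma adjusted p = 0.00404). F11R, which encodes the adhesion protein JAM-A, rose from 19.6 ± 0.481 to 27.5 ± 0.361 FPKM (0.49, SE 0.0280, limma adjusted p = 1.44e-05). All 4 kept their direction and call in the 16 alternative settings. Values of 3 of them are less certain, since reads could have been split with other genes: OCLN has a pseudogene copy, OCLNP1, with up to 4.64 FPKM, F11R shares 36.6% of its exon bases with AL591806.3 on the same strand, and MARVELD3 shares 16.6% with PHLPP2 on the opposite strand.

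In the tight junction plaque, TJP3 and CGN were higher and TJP1 did not pass. TJP3 encodes ZO-3, a scaffold found in epithelial cells, and lies on chromosome 19 (3708109 to 3750813, plus strand). It had 2.11, 1.95 and 1.98 FPKM in Hep3B-Con and 3.92, 5.05 and 5.19 FPKM in Hep3B-KD. The first Hep3B-KD library was lower than its companions, but all 3 lay above the Hep3B-Con values, and the log2 fold change was 1.18 (SE 0.114, limma adjusted p = 0.000143). It stood under 2-fold with quantile normalization (0.98) and with a pseudocount of 1 (0.92).

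CGN, which encodes cingulin, was the most abundant plaque gene, at 17.45, 17.97 and 18.11 FPKM in Hep3B-Con and 21.78, 21.82 and 22.54 FPKM in Hep3B-KD. The groups were separate, and CGN was higher by 0.30 (SE 0.0286, limma adjusted p = 0.000129). TJP1, which encodes ZO-1, had 14.8 ± 0.458 and 15.9 ± 0.443 FPKM. Its log2 fold change of 0.10 (SE 0.0365, limma adjusted p = 0.0598) was close to the median of all genes became -0.01 with median centring, and passed as higher with TPM rescaling (0.12), with voom (0.10) and without Hep3B-KD replicate 2 (0.12).

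The RefSeq promoter of TJP3 (GRCh38.p14, chr19:3708134-3708433, plus strand) is printed for comparison with that of GJA1, and held no match to any of the 3 motifs.
TJP3: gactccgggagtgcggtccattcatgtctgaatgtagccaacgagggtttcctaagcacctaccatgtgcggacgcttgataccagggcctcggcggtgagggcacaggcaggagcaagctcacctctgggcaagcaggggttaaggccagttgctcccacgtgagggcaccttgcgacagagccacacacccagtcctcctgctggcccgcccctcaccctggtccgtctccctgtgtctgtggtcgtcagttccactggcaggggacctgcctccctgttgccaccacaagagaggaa
No promoter entry was at hand for NECTIN1. As entries matched 31 of the 47 genes (66%), no motif share is given over the whole set.

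**Figure D3:**
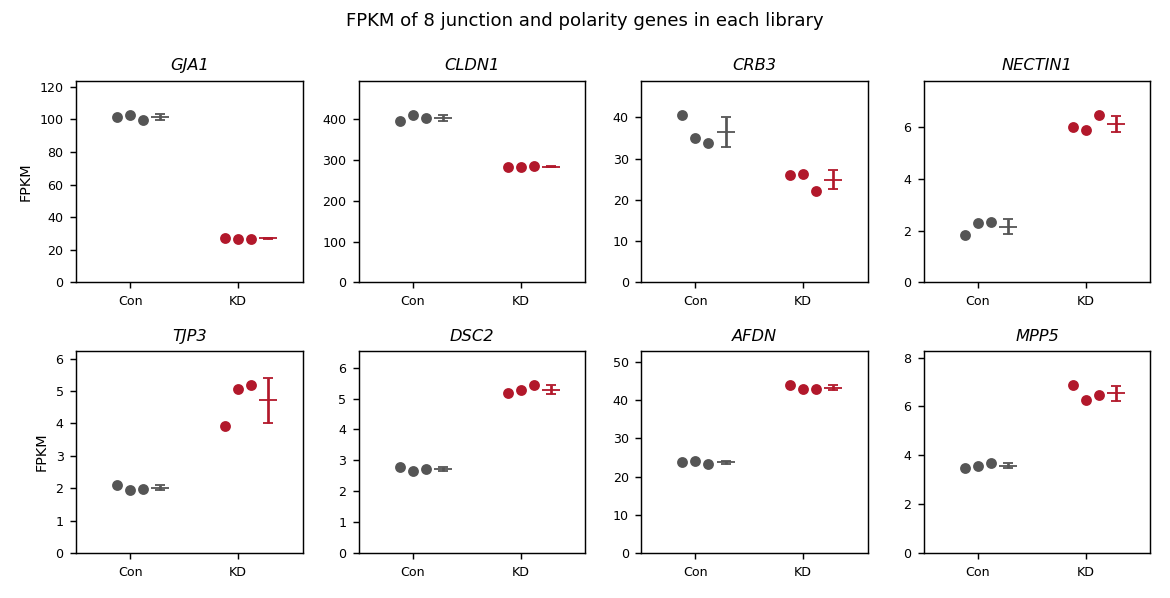
FPKM (y axis, from 0) of 8 junction and polarity genes in each library, Hep3B-Con in grey and Hep3B-KD in red, with the mean and SD of each group (n = 3) beside the points. In all 8 panels the groups are separate, with Hep3B-KD below for GJA1, CLDN1 and CRB3 and above for NECTIN1, TJP3, DSC2, AFDN and MPP5.

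All 8 adherens junction genes passed the test (compared with 59.9% of all genes tested), 6 as higher (75% compared with 36.1%) and 2 as lower (25% compared with 23.8%). With median centring 7 passed, 5 as higher and 2 as lower. The nectins, immunoglobulin-like adhesion molecules that start cell contacts, and their actin linker afadin passed as higher, NECTIN2 with groups that overlapped. NECTIN1, on chromosome 11 (119623408 to 119729084, minus strand), had 1.83, 2.31 and 2.35 FPKM in Hep3B-Con and 6.03, 5.89 and 6.50 FPKM in Hep3B-KD. All Hep3B-KD values were far above those of Hep3B-Con, and NECTIN1 was 2.77-fold higher, with a log2 fold change of 1.47 (SE 0.103, limma adjusted p = 3.35e-05).

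NECTIN3 rose less, from 5.16 ± 0.194 to 7.22 ± 0.369 FPKM (log2 fold change 0.48, SE 0.0536, limma adjusted p = 0.000302). NECTIN2 was the most abundant nectin, with 50.1, 42.1 and 44.1 FPKM in Hep3B-Con and 49.8, 61.0 and 52.9 FPKM in Hep3B-KD. Its groups overlapped, and its difference of 0.26 (SE 0.0910, limma adjusted p = 0.0427) lost the call in 8 of the 16 alternative settings, among them those without Hep3B-Con replicate 2 (0.21) or 3 (0.24) and without Hep3B-KD replicate 2 (0.18) or 3 (0.28). NECTIN1 thereby made up 4.14% ± 0.817 of the summed nectin FPKM in Hep3B-Con and 9.08% ± 0.971 in Hep3B-KD.

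AFDN, which encodes afadin, had 23.8, 24.0 and 23.3 FPKM in Hep3B-Con and 44.0, 42.8 and 42.9 FPKM in Hep3B-KD. With this narrow spread AFDN had the second-smallest adjusted p of the 40 genes, 8.28e-07 by limma, at a log2 fold change of 0.86 (SE 0.0237). CTNND1, which encodes p120-catenin and keeps cadherins at the surface, rose from 80.7 ± 0.487 to 104.3 ± 1.15 FPKM (0.37, SE 0.0168, limma adjusted p = 5.73e-06).

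The armadillo paralogs plakoglobin and β-catenin passed the test in opposite directions. JUP, which encodes plakoglobin and serves adherens junctions as well as desmosomes, was the most abundant adherens junction gene, at 82.8, 85.5 and 84.8 FPKM in Hep3B-Con and 111, 108.3 and 117 FPKM in Hep3B-KD. It was higher without overlap, by 0.41 (SE 0.0316, limma adjusted p = 5.17e-05). CTNNB1, which encodes β-catenin, the cadherin linker and Wnt effector, had 34.3, 33.5 and 34.2 FPKM in Hep3B-Con and 32.8, 31.6 and 31.2 FPKM in Hep3B-KD.

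CTNNB1 was lower by a small amount, a log2 fold change of -0.09 (SE 0.0271, limma adjusted p = 0.0227), with no overlap but no call in 7 of the 16 alternative settings, among them those without Hep3B-Con replicate 1 or 3 (-0.09 each) and without Hep3B-KD replicate 2 (-0.09) or 3 (-0.08). CTNNA1, which encodes α-catenin and joins β-catenin to actin, likewise differed little, at 56.1 ± 0.721 and 53.0 ± 0.527 FPKM (-0.08, SE 0.0197, limma adjusted p = 0.0105), and turned to 0.03 with quantile normalization. Whether the change of JUP differs from that of CTNNB1 was not tested.

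Of the 7 desmosome genes, 5 were higher, 1 lower and 1 past no threshold. DSP encodes desmoplakin, the link to keratin filaments, and was the most abundant desmosome gene, at 85.6, 83.8 and 85.1 FPKM in Hep3B-Con and 112.6, 112.1 and 112.6 FPKM in Hep3B-KD. Its values hardly varied within a group, and the log2 fold change was 0.41 (SE 0.0162, limma adjusted p = 3.41e-06). PKP4 rose by a like amount, from 18.0 ± 0.196 to 24.0 ± 0.538 FPKM (0.41, SE 0.0274, limma adjusted p = 2.75e-05).

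The desmosomal cadherins passed the test in opposite directions. DSC2, which encodes desmocollin-2, had 2.79, 2.66 and 2.72 FPKM in Hep3B-Con and 5.17, 5.27 and 5.44 FPKM in Hep3B-KD. DSG2, which encodes desmoglein-2, its partner, was far more abundant, at 21.68, 21.76 and 22.17 FPKM in Hep3B-Con and 18.61, 18.1 and 18.79 FPKM in Hep3B-KD. Neither pair of groups overlapped: DSC2 was higher by 0.93 (SE 0.0499, limma adjusted p = 1.08e-05) and DSG2 lower, at -0.24 (SE 0.0269, limma adjusted p = 0.000293).

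The remaining plaque genes differed less. PKP2 (plakophilin-2) had a log2 fold change of 0.18 (limma adjusted p = 0.00113) and PPL (periplakin) of 0.19 (limma adjusted p = 0.00606), which did not pass with median centring (0.09, limma adjusted p = 0.107, the largest of its alternatives, the smallest being 0.000205). PKP3, the scarcest desmosome gene at 0.795 ± 0.103 and 0.964 ± 0.0733 FPKM, did not pass (0.25, SE 0.159, limma adjusted p = 0.211) and was -0.04 with quantile normalization. EPCAM, an adhesion protein of simple epithelia and liver progenitor cells that was also the second most abundant gene of the set, had 121.7, 120.1 and 124.4 FPKM in Hep3B-Con and 148.4, 152 and 151.3 FPKM in Hep3B-KD. It was higher without overlap, by 0.30 (SE 0.0195, limma adjusted p = 2.28e-05).

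Of the 8 polarity genes, 5 were higher, 1 was lower and 2 did not pass. CRB3, the membrane anchor of the Crumbs complex in epithelia, had the highest mean over the 6 libraries, although LLGL2 (27.4 FPKM) and SCRIB (25.7 FPKM) stood above it (24.9 FPKM) in Hep3B-KD, and lies on chromosome 19 (6463777 to 6467221, plus strand). It had 40.7, 34.9 and 33.7 FPKM in Hep3B-Con and 26.1, 26.3 and 22.3 FPKM in Hep3B-KD. The groups did not overlap, and CRB3 was lower by a log2 fold change of -0.55 (SE 0.0911, limma adjusted p = 0.00197).

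The CRB3 promoter in RefSeq (GRCh38.p14, chr19:6464021-6464320, plus strand) is shown because CRB3 had the second-largest fall of the 40 tested genes of the set, after GJA1. With quantile normalization GJB2 (-0.57) fell more than CRB3 (-0.47). The CRB3 promoter held 5 E-box matches (CAGGTG or CACCTG), in capitals, and no match to the AP-1 or TEAD motif. At least 1 E-box match was held by 20.6% of promoters, and the share with several was not counted. The DSC2 promoter held 1 E-box match as well, and DSC2 was higher in Hep3B-KD (log2 fold change 0.93). A part of these matches in either difference was not tested.
CRB3: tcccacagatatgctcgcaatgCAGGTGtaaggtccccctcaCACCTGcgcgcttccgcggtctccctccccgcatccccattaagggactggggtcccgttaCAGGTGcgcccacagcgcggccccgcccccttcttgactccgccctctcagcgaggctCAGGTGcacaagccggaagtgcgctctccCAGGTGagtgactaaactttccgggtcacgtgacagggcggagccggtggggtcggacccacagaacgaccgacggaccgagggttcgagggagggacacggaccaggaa

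MPP5 (PALS1) and PATJ, the cytoplasmic scaffolds that bind CRB3, were higher. MPP5 had 3.48, 3.58 and 3.68 FPKM in Hep3B-Con and 6.88, 6.26 and 6.46 FPKM in Hep3B-KD, a log2 fold change of 0.85 (SE 0.0531, limma adjusted p = 2.02e-05). PATJ had 4.85, 5.12 and 4.83 FPKM in Hep3B-Con and 8.31, 8.38 and 8.65 FPKM in Hep3B-KD (0.76, SE 0.0424, limma adjusted p = 1.25e-05). For neither gene did the groups overlap. Of the summed FPKM of the 3 genes, CRB3 held 81.0% ± 1.77 in Hep3B-Con and 62.3% ± 2.45 in Hep3B-KD (SD, n = 3).

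In the PAR complex, PARD6B rose from 2.24 ± 0.157 to 4.08 ± 0.345 FPKM (log2 fold change 0.83, SE 0.0865, limma adjusted p = 0.000204). PARD3, the scaffold of that complex, had 19.6 ± 0.584 and 18.3 ± 0.552 FPKM (-0.10, SE 0.0359, limma adjusted p = 0.0575) and passed as lower with median centring (-0.20), with voom (-0.10) and without Hep3B-Con replicate 2 (-0.12), with limma adjusted p from 0.00280 to 0.209 over the alternative settings. In the Scribble group, DLG1 rose from 5.68 ± 0.216 to 9.08 ± 0.448 FPKM (0.67, SE 0.0518, limma adjusted p = 5.31e-05).

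LLGL2 was higher too, by 0.40 (SE 0.0337, limma adjusted p = 7.91e-05). SCRIB, the third gene of this group, had overlapping values, from 22.2 to 25.9 FPKM in Hep3B-Con and 24.7 to 26.2 FPKM in Hep3B-KD. Its log2 fold change of 0.10 (SE 0.0584, limma adjusted p = 0.176) lay close to the median of all genes, was -0.002 with median centring, and passed as higher with quantile normalization (0.16), with voom (0.10) and without Hep3B-Con replicate 1 (0.16).

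Of the 3 epithelial regulators, ESRP1 and ESRP2 were tested, and each differed by a small amount. ESRP1 and ESRP2 are paralogous splicing factors of epithelial cells, and passed the test in opposite directions. ESRP1 had 26.5, 26.8 and 26.4 FPKM in Hep3B-Con and 28.5, 28.6 and 27.5 FPKM in Hep3B-KD, higher by 0.08 (SE 0.0253, limma adjusted p = 0.0255), whereas with median centring the value was -0.02. ESRP2 had 12.47, 12.53 and 12.51 FPKM in Hep3B-Con and 11.17, 11.33 and 12.06 FPKM in Hep3B-KD, a log2 fold change of -0.12 (SE 0.0376, limma adjusted p = 0.0318). Neither pair of groups overlapped, but ESRP1 lost its call in 7 and ESRP2 in 9 of the 16 alternative settings. These included, for ESRP1, the fits without Hep3B-Con replicate 1 or 3 or Hep3B-KD replicate 1 (0.08 each) or 2 (0.07), and for ESRP2 those without any of the Hep3B-Con libraries (-0.12 each) and without Hep3B-KD replicate 1 (-0.10) or 2 (-0.11). GRHL2, a transcription factor of epithelial junction genes, was read 22, 17 and 24 times in Hep3B-Con and 12, 9 and 14 times in Hep3B-KD, without overlap, and averaged 0.202 ± 0.0385 and 0.119 ± 0.0240 FPKM, with no call in the fit without a filter (limma adjusted p = 0.277).

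**Figure D4:**
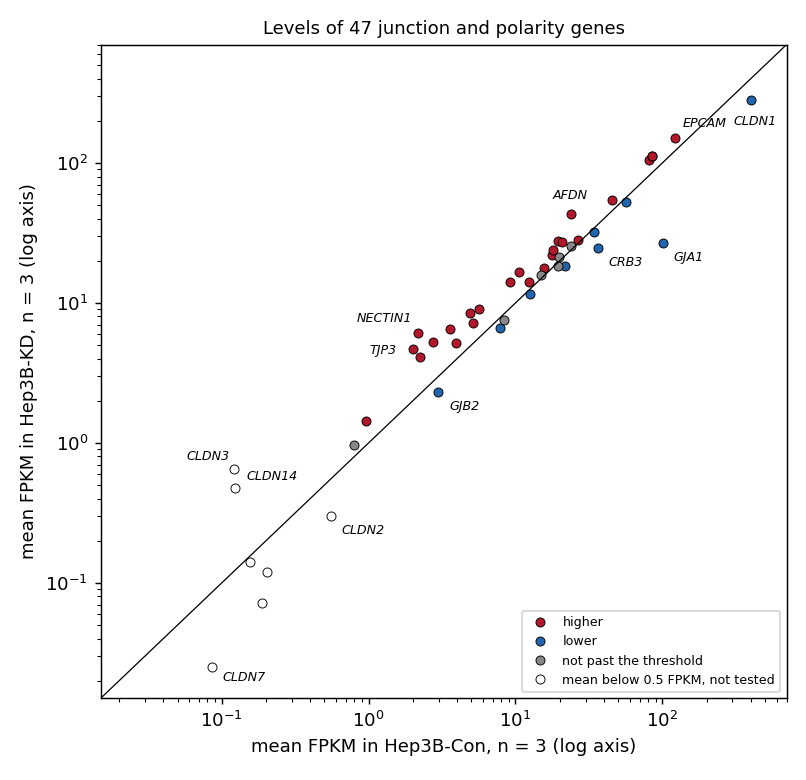
Mean FPKM of the 47 genes in Hep3B-Con (x axis) and Hep3B-KD (y axis), n = 3 each, on log axes, with the line of equal levels. Higher genes (red, 25) lie above the line from 0.966 FPKM (CLDN9) to 122.1 FPKM (EPCAM) in Hep3B-Con. The most abundant gene, CLDN1 (403.6 and 283.2 FPKM), and GJA1 lie below the line. The 7 open circles averaged under 0.5 FPKM over the 6 libraries, although CLDN2 (0.553 FPKM in Hep3B-Con) and CLDN3 (0.647 FPKM in Hep3B-KD) stood above it in 1 group.

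The level of a gene and its direction are set side by side in the plot of mean levels. Among genes between 2.01 FPKM (TJP3) and 5.68 FPKM (DLG1) in Hep3B-Con, those that rose included the scaffolds TJP3, PARD6B, MPP5, PATJ and DLG1, and the adhesion genes NECTIN1, NECTIN3 and DSC2. The lower genes spanned the range, from GJB2 at 2.98 FPKM to CLDN1 at 403.6 FPKM in Hep3B-Con. No test of a relation between level and change was made.

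A further 95 names of the same structures, 89 of which were in the table, gave the surroundings of the 47 genes. Of these, 56 were tested, 28 were higher (50%, compared with 36.1% of all genes tested), 9 lower (16.1% compared with 23.8%) and 19 past no threshold, with a median log2 fold change of 0.22. With median centring, 21 were higher (37.5% compared with 28.6%) and 14 lower (25% compared with 30.3%), and the median was 0.12. Among other tight junction genes 6 of 11 were higher (54.5%, compared with 36.1% of all genes tested) and 0 were lower (compared with 23.8%), and the counts were the same with median centring. CXADR, which encodes a virus receptor at epithelial contacts, rose from 21.0 ± 0.239 to 42.2 ± 1.02 FPKM (log2 fold change 1.0, limma adjusted p = 6.87e-07), and JAM2 from 0.784 ± 0.175 to 1.76 ± 0.0709 FPKM (1.09, limma adjusted p = 0.00120). With median centring these stood at 0.90 and 0.98, under 2-fold. LSR, the most abundant of these and a protein of tricellular contacts, rose from 57.0 ± 5.16 to 75.4 ± 3.20 FPKM (0.41, limma adjusted p = 0.00175).

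Among other adherens junction genes 8 of 13 were higher (61.5%, compared with 36.1% of all genes tested) and 1 lower (7.69% compared with 23.8%). With median centring 6 were higher and 3 lower. The cadherin gene CDH6 rose from 8.97 ± 0.190 to 20.6 ± 0.464 FPKM (1.19, limma adjusted p = 8.19e-07). The cadherin genes CDH1 and CDH2 rose by less than 2-fold. CDH1 went from 17.1 ± 0.480 to 33.0 ± 0.409 FPKM (0.95, limma adjusted p = 1.32e-06). CDH2 went from 28.9 ± 0.657 to 52.2 ± 1.85 FPKM (0.85, limma adjusted p = 3.16e-06), and CDH3 was too low to be tested. The most abundant gene, ACTN4, which encodes an actin cross-linker, was lower at 141.5 ± 0.809 and 105.7 ± 0.123 FPKM (-0.42, limma adjusted p = 1.85e-06). Of other desmosome genes only PERP and PLEC were tested, and PERP, a p53-regulated desmosomal membrane protein, was lower (-0.64, limma adjusted p = 2.24e-05). Other gap junction genes split into 2 higher and 2 lower of 4 tested (50% each, compared with 36.1% and 23.8% of all genes tested). The most abundant of them, GJC1 (connexin 45), had 15.7 ± 0.580 and 19.8 ± 0.595 FPKM (0.33, limma adjusted p = 0.000354).

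Of 18 other polarity genes tested, 8 were higher (44.4%, compared with 36.1% of all genes tested) and 3 lower (16.7% compared with 23.8%). With median centring 5 were higher (27.8% compared with 28.6%) and 3 lower (16.7% compared with 30.3%). The most abundant, the angiomotin family gene AMOTL2, was lower (-0.20, limma adjusted p = 0.000883). Of 8 other epithelial regulators and surface proteases tested, 4 were higher (50% compared with 36.1%) and 2 lower (25% compared with 23.8%). With median centring 2 were higher and 4 lower. SPINT1, an inhibitor of surface proteases, rose from 48.0 ± 1.59 to 81.3 ± 0.129 FPKM (0.76, limma adjusted p = 2.22e-06). RBM47, an RNA-binding splicing regulator, fell from 9.79 ± 0.456 to 4.55 ± 0.191 FPKM (-1.09, limma adjusted p = 7.25e-06).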

How the data were processed

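RNA-seq of 3 Hep3B-Con and 3 Hep3B-KD samples was analysed. The authors prepared TruSeq libraries, sequenced them on an Illumina HiSeq instrument and deposited FPKM values for 29908 Ensembl genes in 1 table. The submitters' processing notes name TopHat2 2.0.12, Bowtie2 2.0.6 and GRCh37, whereas the exon lengths of GENCODE release 29 (GRCh38) turned 100% of the deposited FPKM values into whole reads (tolerance 0.01) that summed to the library totals. Coordinates follow that release. The strand used in counting is not given in the sources used here.

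Genes that averaged 0.5 FPKM or more (14221) were tested on log2(FPKM + 0.1), which understates folds of low genes, with limma 3.58.1 (lmFit, eBayes with trend) in R 4.3.3 and Benjamini-Hochberg adjustment at 0.05. All rows entered the fit, and for 382 rows with a repeated symbol the row with the highest mean stood for it. The fit was tested on simulated reads. Tables were handled in Python 3.11.15 (pandas 2.3.3, numpy 2.4.6) and plots drawn with matplotlib 3.10.9. The floor was 3 reads per library, which covers counting error only.

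Any of the 47 genes could be named. Values per library are given for genes past 2-fold, for the most abundant gene of each class and for paralogs that passed in opposite directions, as well as for some others chosen after their values were seen. Of the further lists, genes past 2-fold or most abundant are named, and other cadherin genes were added after their values were seen. The genes and lists were chosen with earlier results of these data known. As alternatives, the filter was dropped or raised to 1 FPKM, the pseudocount was set to 1 or 0.01, and values were rescaled to TPM. Further ones were median centring, quantile normalization, eBayes without the trend, the replicate number as a block, voom on recovered reads, and each library left out.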

Additional observations from a re-analysis of the deposited data

How the results depend on the processing

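Of the 34 genes past the threshold, 26 (21 higher and 5 lower) kept their direction and call in all 16 alternative settings, and CLDN9, CLDN12, CTNNA1, CTNNB1, NECTIN2, PPL, ESRP1 and ESRP2 did not. Over these settings 21 to 27 of the set were higher, 6 to 11 lower and 2 to 4 past 2-fold, and DAGLA ranged from -1.09 to -0.87. In 639 comparisons of a gene with an alternative, 578 agreed in direction and call, 44 lost and 11 gained a call, and 6 reversed: with median centring TJP1 (-0.01), GJB1 (-0.02), SCRIB (-0.002) and ESRP1 (-0.02), and with quantile normalization CTNNA1 (0.03) and PKP3 (-0.04). Median centring lowered every log2 fold change by 0.1035, and the genes it reversed had stood at 0.084 (GJB1) to 0.102 (SCRIB). The cause of the other changes of call or direction was not tested. Among all genes, 503 passed 2-fold with a pseudocount of 1, which shrinks folds of low genes, against 1256. With a library left out, 23 to 24 of the set were higher, 6 to 8 lower and 3 past 2-fold.

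No sign of pairing by replicate number was seen: deviations of same-numbered libraries correlated at -0.013, -0.066 and -0.001. These values cannot show whether same-numbered samples were handled together. With the replicate block, 23 genes of the set were higher, 8 lower and 7919 of all genes passed, and DAGLA stood at -0.99. The 7 genes under 0.5 FPKM were tested in the fit with no filter alone, and CLDN3 was the one that passed (1.81).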
